A study of Mus musculus with 6 samples.

Results

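The 7 genes described here, Ly6a, Ly6c1, Ly6c2, Ly6d, Ly6e, Ly6h and Ly6k, encode small surface proteins of the Ly6 family and lie in the Ly6 cluster of mouse chromosome 15. They are 7 of the 55401 genes in the deposited table and were taken by symbol. The set was drawn up around Ly6e because that gene ranked high among the falls when Nf2-knockout and control libraries were compared. The values of that comparison for the members are therefore given as descriptions, with no claim resting on them. Adjusted p-values printed for members are part of the values the choice drew on, not independent evidence.

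Poly(A) RNA had been sequenced from primary mouse chondrocytes, the cells of cartilage, kept in culture. There were 3 libraries of Nf2-knockout cells and 3 of control cells. Both groups carry a floxed Nf2 gene (Nf2 f/f), which is deleted in the first and intact in the second. Nf2 encodes merlin, a membrane-linked protein upstream of the Hippo kinases. How the deletion was induced, the age of the mice and whether replicates came from separate animals were not stated in the labels. All 6 library names carry D7, with cKO for the knockout and CTL for the control, and the labels do not spell these out. The p-values therefore reflect library-to-library spread alone, and that spread may be technical. In place of a knockout, the treatment field of the first group reads TCF21 overexpressing, which the titles do not mention. Tcf21 had 0, 2 and 0 counts in those libraries.

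Ly6 proteins are compact extracellular domains held in shape by disulfide bonds between conserved cysteines, and most are fixed to the outer face of the plasma membrane by a glycosylphosphatidylinositol (GPI) anchor. Ly6a is the stem cell antigen Sca-1, used to mark progenitor cells including those of the skeleton. The Ly-6C antigen of monocytes and some endothelial cells is made by Ly6c1 and Ly6c2, while Ly6e, a gene induced by interferon and by retinoic acid, encodes a protein that limits entry of some viruses. Ly6d marks early B-lineage cells and keratinocytes. Ly6h is a brain gene whose product acts on nicotinic acetylcholine receptors, and Ly6k acts in sperm.

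The coding sequence of Ly6e is shown first, as the member with the greatest difference between groups. It comes from the transcript chosen for Ly6e in GENCODE M21 on GRCm38, and bases 1 to 300 of its 411 are given 5′ to 3′. Capitals mark in-frame TGT and TGC codons, which encode cysteine, 9 in this stretch and 10 in the whole coding sequence.
Ly6e: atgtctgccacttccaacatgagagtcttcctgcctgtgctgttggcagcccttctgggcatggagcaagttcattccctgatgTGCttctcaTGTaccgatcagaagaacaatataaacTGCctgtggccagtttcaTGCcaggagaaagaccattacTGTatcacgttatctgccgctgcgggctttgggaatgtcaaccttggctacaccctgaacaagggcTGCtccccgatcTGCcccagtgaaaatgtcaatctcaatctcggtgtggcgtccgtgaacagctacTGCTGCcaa
The count over the whole coding sequence was 12 in Ly6a, Ly6c1, Ly6c2 and Ly6h, and 11 in Ly6d and Ly6k. The coding sequences of Ly6c1 and Ly6c2 are set side by side because reads of one can be counted for the other. Bases 1 to 300 of 396 are given, and capitals mark the bases at which they differ, 7 in this stretch and 9 in all.
Ly6c1: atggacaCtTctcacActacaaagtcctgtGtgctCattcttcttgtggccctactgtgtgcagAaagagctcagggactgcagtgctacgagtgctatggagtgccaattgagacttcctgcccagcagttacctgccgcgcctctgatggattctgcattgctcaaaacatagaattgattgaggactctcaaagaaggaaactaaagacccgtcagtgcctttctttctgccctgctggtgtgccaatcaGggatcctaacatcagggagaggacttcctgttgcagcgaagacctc
Ly6c2: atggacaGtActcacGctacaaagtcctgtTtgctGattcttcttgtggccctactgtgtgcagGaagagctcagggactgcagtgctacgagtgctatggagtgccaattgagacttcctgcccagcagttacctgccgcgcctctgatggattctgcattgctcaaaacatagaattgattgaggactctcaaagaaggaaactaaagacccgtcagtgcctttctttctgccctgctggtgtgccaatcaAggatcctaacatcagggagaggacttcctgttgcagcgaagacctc
The whole coding sequences were 97.7% identical. Of all windows of 50 bases in the Ly6c1 transcript used, 31.7% occurred letter for letter in a Ly6c2 transcript, and of those of 100 bases 15.3% did. Ly6e shared 53.9% of aligned coding positions with Ly6a, and no window of 50 bases with Ly6a, Ly6c1 or Ly6c2. Ly6a and Ly6c1 were 82.0% identical in coding sequence, and 4.42% of the windows of 50 bases in Ly6a occurred in Ly6c1. How the authors treated reads that match several genes is not given, so the division of counts between Ly6c1 and Ly6c2 is uncertain, whereas none of these windows ties Ly6e to them.

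For Ly6c1 and Ly6c2, the only members with such a sequence at hand, the regions before the start are shown. They come from RefSeq on GRCm38.p6, which held such a sequence for 2 of the 7 members, and span 250 bases before to 50 after a start on the minus strand. Ly6c1 is given at chr15:75048788-75049087 and Ly6c2 at chr15:75111922-75112221. Capitals mark a match to TATAAA.
Ly6c1 promoter: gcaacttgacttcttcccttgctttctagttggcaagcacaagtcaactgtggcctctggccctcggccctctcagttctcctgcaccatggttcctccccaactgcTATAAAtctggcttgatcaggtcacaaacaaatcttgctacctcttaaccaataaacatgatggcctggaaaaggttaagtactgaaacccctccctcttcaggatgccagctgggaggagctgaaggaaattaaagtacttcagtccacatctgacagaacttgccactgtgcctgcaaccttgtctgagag
Ly6c2 promoter: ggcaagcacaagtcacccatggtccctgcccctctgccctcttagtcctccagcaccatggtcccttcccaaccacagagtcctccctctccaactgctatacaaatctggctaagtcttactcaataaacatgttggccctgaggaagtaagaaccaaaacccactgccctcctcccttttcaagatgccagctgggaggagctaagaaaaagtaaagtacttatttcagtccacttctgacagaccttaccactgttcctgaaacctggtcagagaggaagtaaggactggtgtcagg
The pair was 62.3% identical over 334 aligned columns, of which 68 were gaps and 58 mismatches. The coding sequences aligned with 0 gaps, so this percentage is not a like measure to theirs. RefSeq holds 2 starts for each gene, and 1 of each is shown. Searches of both strands covered the interferon element core (a pair of GAAA with 2 bases of any kind between them), the GAS element (TTC and GAA with 3 bases of any kind between them), the TEAD site GGAATG, the AP-1 site TGANTCA and TATAAA. In these windows only TATAAA had a match, in Ly6c1, and it began 143 bases before the start. The window at the other Ly6c1 start held no match to it. Among 32851 RefSeq promoters of this length, 3.44%, 8.30%, 14.7%, 7.81% and 13.6% held these letters in that order.

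Library totals ran from 50906043 to 63748798 counts, and edgeR, fitted over 18218 genes, called 1693 of them (9.29%), 749 higher and 944 lower in Nf2-knockout libraries. That made 44.2% of calls rises, against 63.0% in limma on the deposited FPKM. Levels below are in CPM, counts scaled to a fixed library total with TMM factors, as mean ± SD (n = 3 libraries a group), and log2 fold changes are of Nf2-knockout over control with edgeR's standard error (SE). Nf2 itself stood at 126.8 ± 5.32 CPM in control cells and 95.3 ± 6.59 CPM after knockout. It was counted over the whole gene, with a log2 fold change of −0.41 (edgeR adjusted p = 0.0305), a call lost whichever of the 6 libraries was left out. The chondrocyte markers were present, with 16 of 16 detected. Col2a1, the main cartilage collagen, was at 231 ± 50.7 CPM in control cells and 581 ± 223 CPM after knockout. Control levels ran from 2.32 ± 0.922 CPM (Matn1) to 377 ± 75.6 CPM (Comp), with Acan at 12.6 ± 2.49 and Sox9 at 23.7 ± 3.81. Col1a1, listed below with the osteoblast markers, stood at 2932 ± 531 CPM in control cells. In edgeR 1 of the 16 rose (Col2a1, adjusted p = 0.0446) and 1 fell (Col9a2, from 70.0 ± 17.2 to 23.8 ± 11.7 CPM, 0.0482), each call held in 1 of 6 fits that left a library out, and their median log2 fold change was −0.18. The most common count above 0 was 4, more common than 1, and 37.5% of counts from 1 to 20 were multiples of 4. How counts were made is not stated, so 1 count may not be 1 read, and no fold is given against a group with 0 counts.

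Of the 7 members, 4 were expressed at levels that could be fitted, and they did not move together. Ly6e was lower in Nf2-knockout libraries, Ly6c1 and Ly6c2 were higher, and the Ly6a groups overlapped. Of the 4 genes fitted, edgeR called 2, Ly6e lower and Ly6c1 higher, beside 9.29% of all tested genes (4.11% higher, 5.18% lower), and groups did not overlap for 3 of 4, beside 32.9% of all tested genes. Since the set was chosen on this comparison, nothing is read from these counts. The other 3 members, Ly6d, Ly6h and Ly6k, had too few counts to be fitted.

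Ly6e (ENSMUSG00000022587, chromosome 15, 74955051 to 74959905, plus strand, GRCm38) stood at 362, 306 and 279 CPM in Nf2-knockout replicates 1 to 3 and at 993, 1047 and 1041 CPM in control replicates 1 to 3. Every Nf2-knockout library lay far below every control library, and the controls lay close together. Means were 316 ± 42.4 and 1027 ± 29.6 CPM, and the log2 fold change was −1.70 (SE 0.114), a level 3.25-fold higher in control. These are the values that chose the set: by p-value Ly6e ranked 1 among the falls and 6 among all 18218 genes in edgeR (adjusted p = 0.00304). The value moved little when the processing was varied, between −1.79 and −1.60 on the log2 scale over 13 alternative fits.

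Ly6a (chromosome 15, 74994877 to 74998031, minus strand), the Sca-1 gene, stood at 698, 764 and 655 CPM in the Nf2-knockout libraries, against 757, 787 and 750.4 CPM in the controls. The second Nf2-knockout library lay within the control range and the other two below it, so the groups overlapped. Its log2 fold change was −0.12 (SE 0.0883), with an edgeR adjusted p = 0.478. Over the alternative fits it lay between −0.17 and −0.02. A p that misses the threshold does not show equal levels.

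Ly6c1 (chromosome 15, 75044018 to 75048830, minus strand) stood at 623, 713 and 604 CPM in the Nf2-knockout libraries, against 439.7, 454 and 468 CPM in the controls. All 3 Nf2-knockout libraries lay above all 3 controls. Its log2 fold change was 0.51 (SE 0.0924), 42.3% above control, with an edgeR adjusted p = 0.0195. It no longer passed when Nf2-knockout replicate 1 was left out (adjusted p = 0.0612), nor without control replicate 2 (0.0697) or control replicate 1 (0.0556), nor under the replicate block (0.0533), while the log2 value stayed between 0.44 and 0.61 in all 13 alternative fits.

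Ly6c2 (chromosome 15, 75108158 to 75111970, minus strand) had far lower counts than its near-copy, at 38.2, 27.9 and 20.5 CPM in the Nf2-knockout libraries, against 16.1, 17.6 and 17.3 CPM in the controls. The groups did not overlap, but the Nf2-knockout libraries were widely spread, with replicate 1 highest and replicate 3 near the controls. Its log2 fold change was 0.76 (SE 0.217), with an edgeR adjusted p = 0.0764 that did not pass. It passed without Nf2-knockout replicate 3 (log2 fold change 0.97, adjusted p = 0.031) and with DESeq2 (0.78, adjusted p = 0.00797). The sequence shared with Ly6c1 touches both values.

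**Figure D1:**
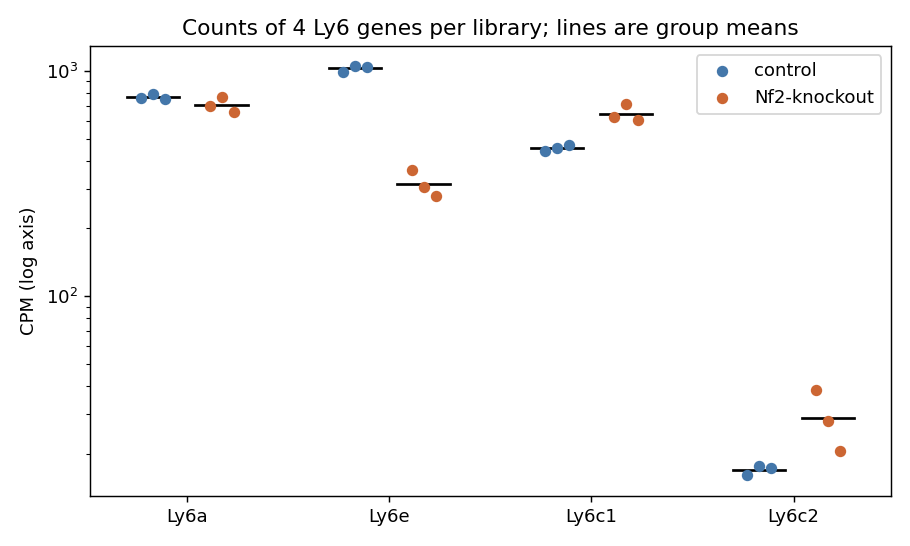
CPM on a log axis of Ly6a, Ly6e, Ly6c1 and Ly6c2 in each of 3 control and 3 Nf2-knockout libraries (points), with group means as lines. Ly6e falls from about 1027 to 316 CPM, Ly6c1 and Ly6c2 lie higher in Nf2-knockout libraries, and the Ly6a groups overlap.

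The remaining members were at the edge of detection. Ly6d (chromosome 15, 74762056 to 74763620) gave 22, 0 and 20 counts in the Nf2-knockout libraries, against 0 in every control. With 1 of the Nf2-knockout libraries at 0, the Ly6d groups overlapped. Ly6h (chromosome 15, 75551268 to 75567216) gave 0, 0 and 8 counts in the Nf2-knockout libraries, against 0, 0 and 4 in the controls. Ly6k (chromosome 15, 74796874 to 74799986) had 15 counts in control replicate 2 and 0 elsewhere. In that same library the antisense gene Gm17189, which overlaps Ly6k, had its only 12 counts, and since the strand of the libraries is not given, reads of the 2 genes cannot be told apart.

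Because the 4 expressed members are read in the same libraries, their ratios do not depend on how libraries are scaled. The deposited FPKM of Ly6e was 0.418, 0.424 and 0.442 of that of Ly6a in control libraries and 0.165, 0.128 and 0.136 of it in Nf2-knockout libraries. For Ly6c1 over Ly6a the values were 0.417, 0.415 and 0.448 in the controls and 0.641, 0.671 and 0.663 in the Nf2-knockout libraries. Both ratios separated the groups, in opposite directions. Ly6c1 over Ly6c2 was 44.7, 42.1 and 44.4 in the controls and 26.6, 41.8 and 48.2 in the Nf2-knockout libraries, so those groups overlapped and replicate 1 stood lowest.

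**Figure D2:**
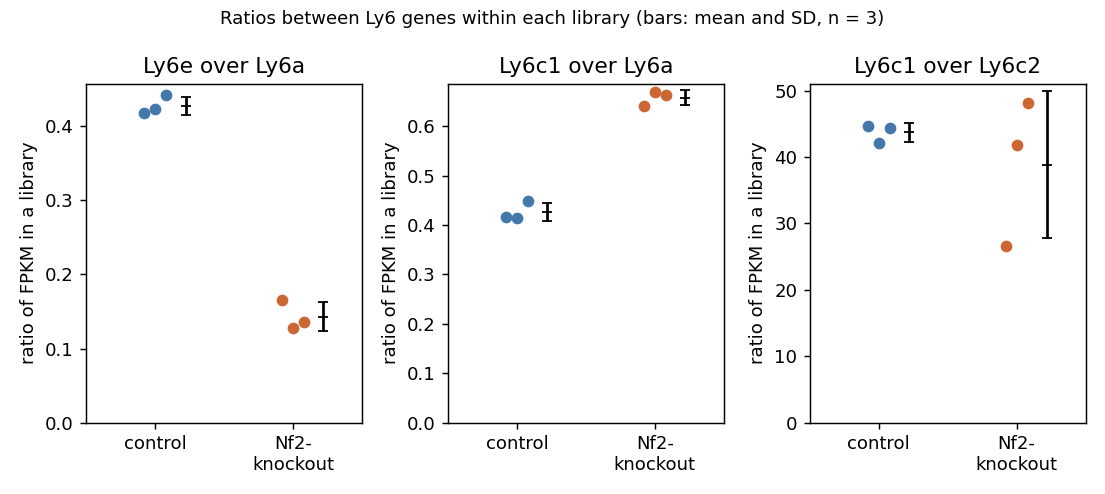
Ratios of deposited FPKM between 2 Ly6 genes within each library, for 3 control and 3 Nf2-knockout libraries (points), with mean and SD. Ly6e over Ly6a goes from 0.428 to 0.143 and Ly6c1 over Ly6a from 0.427 to 0.658, while Ly6c1 over Ly6c2 overlaps between groups.

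On the deposited FPKM scale, which divides by length, Ly6a was highest in control libraries at 551 ± 15.5, followed by Ly6e at 236 ± 5.95 and Ly6c1 at 235 ± 6.05, with Ly6c2 at 5.38 ± 0.240. Levels of Ly6e and Ly6c1 did not differ beyond their spread there. In Nf2-knockout libraries the order was Ly6a at 545 ± 38.8, Ly6c1 at 359 ± 30.4, Ly6e at 77.7 ± 9.90 and Ly6c2 at 9.79 ± 2.95, with no overlap between neighbours. Ranked by mean FPKM among 27103 genes with a count, Ly6a was 75th in the controls and 72nd in the Nf2-knockout libraries, Ly6e 194th and 668th, and Ly6c1 195th and 126th. The 7 members summed to 1027 ± 20.1 FPKM in control and 992 ± 69.8 FPKM in Nf2-knockout libraries, ranges that overlapped. In CPM, which does not divide by length, they summed to 2263 ± 51.7 and 1697 ± 128, and Ly6e made up 45.4% ± 0.352 and 18.6% ± 2.16 of that sum. CPM also uses TMM factors, 1.026 to 1.048 in Nf2-knockout and 0.958 to 0.972 in control libraries. These factors were not applied to the deposited FPKM, so the 2 scales differ in this too.

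The order of levels between genes rests on the length behind the FPKM. For 12086 genes with at least 100 counts in every library, count over FPKM gave a length close to a fixed multiple of all annotated exons merged, and 97.0% of values lay within 1% of that multiple. For Ly6e the merged exons cover 3784 bases against 2281 bases in its longest protein-coding transcript. For Ly6a these lengths are 1205 and 955 bases, for Ly6c1 1677 and 844, and for Ly6c2 2740 and 822. Rescaled to the longest protein-coding transcript, the control levels became 695 ± 19.6 FPKM for Ly6a, 467 ± 12.0 for Ly6c1, 391 ± 9.88 for Ly6e and 17.9 ± 0.801 for Ly6c2. In Nf2-knockout libraries Ly6c1, at 713 ± 60.5, and Ly6a, at 688 ± 48.9, then overlapped, and Ly6e stood at 129 ± 16.4. The difference between groups for a single gene does not depend on this choice, whereas that of a sum over genes does.

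Most other Ly6 and uPAR family genes had too few counts to be tested. Of 41 in the table, 15 had 0 counts in every library and 10 could be tested, of which 3 rose and 0 fell in edgeR, where 4.11% of all tested genes rose and 5.18% fell, with a median log2 fold change of 0.31 against −0.01 for all tested genes. Slurp1, a secreted family member of keratinocytes, rose to 4.62 ± 1.91 CPM from 0.632 ± 0.290 CPM in the controls (2.86 on the log2 scale, SE 0.479, adjusted p = 0.0151), a call lost without Nf2-knockout replicate 1 (0.0506). Plaur, the urokinase receptor gene on chromosome 7, rose from 31.5 ± 1.75 to 48.3 ± 7.17 CPM (0.62, SE 0.131, adjusted p = 0.0315). Its call was held only without Nf2-knockout replicate 3 among the 6 fits that left out 1 library. Ly6f had 20, 16 and 19 counts in Nf2-knockout and 0 in each control library. Its call (edgeR adjusted p = 0.0334) was lost whichever library was left out.

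The other tested family genes did not pass. Lynx1, a neighbour whose product binds nicotinic receptors, stood at 89.3 ± 6.78 against 83.9 ± 2.38 CPM in control libraries (0.09, adjusted p = 0.587). Cd59a and Cd59b, which encode complement inhibitors, had log2 fold changes of 0.07 and 0.41, and Ly6g6d, Ly6g5b and Ly6m −0.77, 1.73 and 0.21, the last 3 with SE of 1.12, 1.52 and 0.814 at low counts. Ly6i, the closest of the coding sequences compared to that of Ly6a, had 20, 166 and 9 counts in the controls and 0, 21 and 11 in the Nf2-knockout libraries. Its control value rests on replicate 2, the library in which summed macrophage markers were also highest, and any link was not tested. The neutrophil antigen gene Ly6g had 8 counts in 1 Nf2-knockout and 4 in 1 control library.

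The neighbourhood of the members on the chromosome was examined next. They span 805 kb, and with 100 kb on either side the region holds 58 annotated genes, of which 24 had 0 counts in every library and 18 could be tested. In edgeR 3 rose (Slurp1, Ly6c1 and Ly6f), 2 fell (Ly6e and Gm39556) and 13 did not pass, so 5 of 18 were called, beside 9.29% of all tested genes. These 5 include Ly6e and Ly6c1, which belong to the set chosen on this comparison. Ly6a lies 35.0 kb beyond the end of Ly6e, Ly6c1 46.0 kb beyond Ly6a and Ly6c2 59.3 kb beyond Ly6c1, with Ly6i between Ly6e and Ly6a. Gm39556, a long noncoding RNA that ends 18.7 kb before the Ly6e start, had 22, 15 and 18 counts in control and 0 in each Nf2-knockout library. Its call (adjusted p = 0.0302) was likewise lost in each of those fits. Arc, an activity-induced gene at the edge of the region, did not pass (1.08, SE 0.283, adjusted p = 0.0600).

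**Figure D3:**
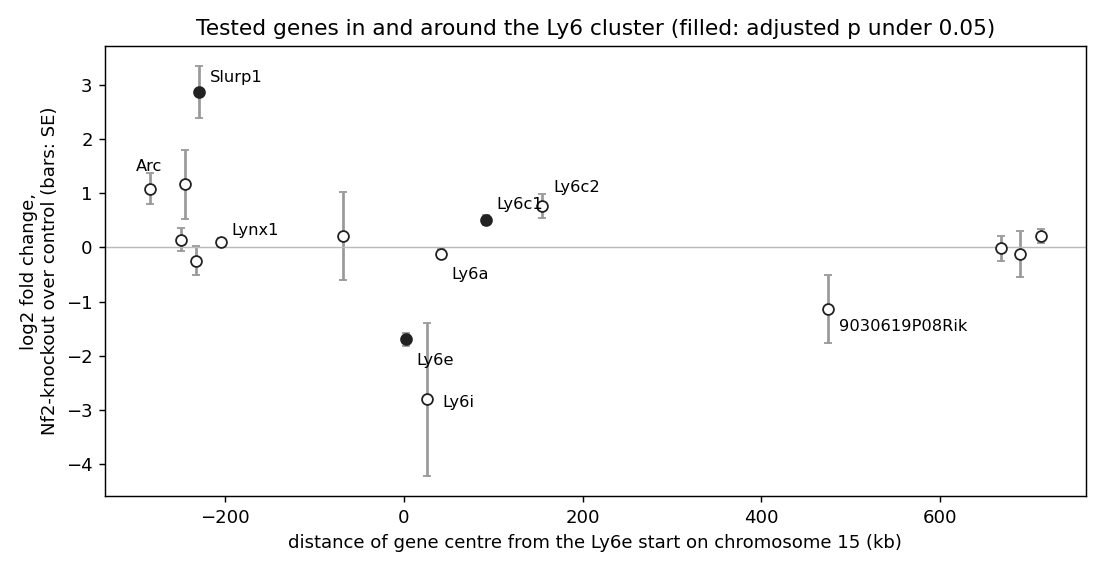
Log2 fold change of Nf2-knockout over control (points, bars are SE) against the distance in kb of the gene's centre from the Ly6e start, for the 16 tested genes of the region with counts in both groups; Ly6f and Gm39556, with 0 counts in one group, are left out. Filled points passed edgeR at an adjusted p under 0.05: Slurp1 at 2.86, Ly6c1 at 0.51 and Ly6e at −1.70.

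Ly6a, the Ly6c genes and Ly6e are known as interferon-induced genes. Of these, Ly6e was lower in Nf2-knockout libraries (log2 fold change −1.70), Ly6a overlapped between groups (−0.12), and Ly6c1 (0.51) and Ly6c2 (0.76) were higher. Other genes of the interferon response were mostly lower in Nf2-knockout libraries. Of 45 tested genes 22 fell and 0 rose in edgeR, where 5.18% of all tested genes fell, and 43 of 45 had values below 0. Besides induced genes the list holds those of interferon receptors and their kinases, among them the 2 with values above 0. The median log2 fold change was −0.81, against −0.01 for all tested genes. The antiviral gene Ifit3 fell from 147 ± 14.8 to 55.9 ± 5.21 CPM (−1.39, edgeR adjusted p = 0.00317). Ifitm3, which blocks virus entry, fell from 602 ± 5.52 to 379 ± 2.60 CPM (−0.67). Oasl2 (−1.91), Dhx58 (−1.39) and Irf7 (−1.20) fell as well. Bst2, whose product like Ly6e carries a GPI anchor, was at 177 ± 19.5 CPM in the controls and 125 ± 32.0 CPM after knockout, which did not pass (−0.50, adjusted p = 0.167), and neither did the kinase gene Jak1 (−0.26, adjusted p = 0.0942). Only 4 of the 45 genes had a lower log2 fold change than Ly6e, 4 lay above Ly6a and 0 above Ly6c1. Between 10 genes (without Nf2-knockout replicate 1) and 18 genes (without control replicate 3) fell when 1 library was left out, with 13 without Nf2-knockout replicate 3 and 11 when control replicate 1 or 2 was the one omitted. Summed macrophage markers were lower in the Nf2-knockout libraries too, at 51.3 to 117 against 168 to 447 CPM, and their part in these falls was not tested.

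**Figure D4:**
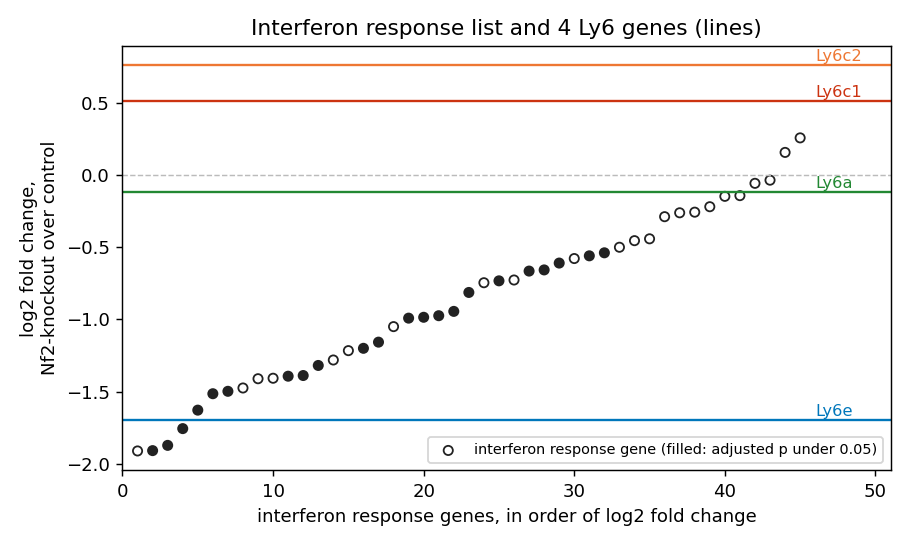
Log2 fold change of Nf2-knockout over control for the 45 genes of the interferon list in order (points, filled where edgeR's adjusted p was under 0.05), with horizontal lines at the values of Ly6a, Ly6c1, Ly6c2 and Ly6e. The list includes genes of interferon receptors and their kinases. The line for Ly6e at −1.70 has 4 genes below it, and the lines for Ly6c1 at 0.51 and Ly6c2 at 0.76 lie above every gene of the list.

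Of genes that build, attach or carry the GPI anchor, 1 of 31 tested rose and 1 fell in edgeR, near the 4.11% and 5.18% of all tested genes, with a median log2 fold change of −0.12. Tmed2, a cargo receptor of the early secretory pathway that carries GPI-anchored proteins, rose from 168 ± 15.3 to 395 ± 38.0 CPM (1.24, adjusted p = 0.00317). Its partner Tmed10 stood at 293 ± 8.44 against 333 ± 10.4 CPM (−0.18, adjusted p = 0.186). Tmem8, which trims lipid from such anchors, fell from 74.5 ± 22.8 to 28.6 ± 11.9 CPM (−1.38, edgeR adjusted p = 0.0452). Among the 6 fits that left out 1 library, its call was held only without Nf2-knockout replicate 2. The transamidase gene Pigk stood at 118 ± 3.16 against 118 ± 7.07 CPM.

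Other genes of GPI-anchored surface proteins gave 7 rises and 5 falls among 42 tested, beside 4.11% and 5.18% of all tested genes, and a median log2 fold change of 0.08. The glypican gene Gpc4 rose from 50.4 ± 2.76 to 102 ± 6.16 CPM (log2 fold change 1.01), while Gpc1 fell by 1.24 on that scale. Reck, a protease inhibitor gene, rose by 0.92 on the log2 scale, and Rgma, a BMP co-receptor gene, fell by 1.32. The prion protein gene Prnp, at 654 ± 9.37 against 504 ± 8.85 CPM, rose by 0.38, which passed in 1 of 6 fits that left a library out. Of 16 nicotinic receptor subunit genes, the targets of Ly6h and Lynx1 products among them, 8 had 0 counts and 1 of 5 tested fell, beside 5.18% of all tested genes: Chrna4, from 1.42 ± 0.186 to 0.169 ± 0.0189 CPM (−3.05, adjusted p = 0.00786).

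Ly6 genes are also markers of blood and vessel cells, so the markers of those cells are given beside them. In bulk RNA, fewer cells of a type and less RNA per cell cannot be told apart. Macrophage and monocyte markers (14 of 15 detected, Ccr2 at 0) summed to 51.3 to 117 CPM in Nf2-knockout and 168 to 447 CPM in control libraries, and 6 of 13 tested fell, beside 5.18% of all tested genes. Among these calls that of Cd68 was held in 0 and that of Mrc1 in 1 of 6 fits that left a library out. Ly6e was lower in the group with the lower macrophage sums, and within each group it ran in the same order as that sum. In control replicates 1 to 3 Ly6e stood at 993, 1047 and 1041 CPM, and the sum at 168, 447 and 224 CPM. In Nf2-knockout replicates 1 to 3 Ly6e stood at 362, 306 and 279 CPM. Ly6c2 was higher in the group with the lower sums, but among the Nf2-knockout libraries both ran in the same order, at 117, 90.9 and 51.3 CPM for the markers and 38.2, 27.9 and 20.5 CPM for Ly6c2 in replicates 1 to 3. Lymphocyte markers had 7 of 10 genes at 0 and summed to at most 2.34 CPM, and neutrophil markers had 4 of 10 at 0 and summed to at most 1.42 CPM. Endothelial markers summed to 89.5 to 106 CPM in Nf2-knockout and 84.8 to 109 CPM in control libraries, mostly from Eng, with Pecam1 at 0.248 ± 0.113 and 0.277 ± 0.113 CPM and Cdh5 at 0, 0 and 0 against 16, 0 and 4 counts in the controls. Of 10 tested, 1 rose, Kdr, a VEGF receptor gene, from 1.75 ± 0.286 to 4.49 ± 0.766 CPM (1.36, adjusted p = 0.0196). Epithelial markers summed to 37.0 to 47.2 and 10.5 to 13.3 CPM. Most of that came from the desmosome gene Dsp, which rose from 2.98 ± 0.750 to 32.1 ± 3.90 CPM (3.43), the 1 call among 6 tested, of which 5 had values above 0. Krt14 had 0, 0 and 0 against 12, 0 and 0 counts in the controls. Progenitor markers, among which Ly6a is often used, summed to 2194 to 2573 and 3069 to 3407 CPM, but 3 of 14 tested rose and 3 fell, with a median log2 fold change of 0.15. Pdgfra fell from 615 ± 21.5 to 229 ± 39.7 CPM (−1.42) and Cxcl12 from 867 ± 105 to 278 ± 93.6 CPM (−1.64), the other fall was Vcam1 (−0.66), and the rises were Nes (1.86), Lepr (0.94) and Cd44 (0.76). Summed osteoblast markers overlapped between groups, at 11458 to 13598 and 11734 to 13957 CPM. Most of that came from Spp1, at 9755 ± 1267 and 9719 ± 1469 CPM, and Col1a1, while Runx2 stood at 13.3 ± 0.565 and 20.1 ± 7.28 CPM. Of 10 tested, 0 were called, beside 9.29% of all tested genes, and 7 had values above 0. The part of the macrophage, epithelial and progenitor differences in the Ly6 values was not tested.

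Across the 6 libraries, the genes whose log2 CPM followed Ly6e most closely among 12093 genes were Fbxo40, Nat8f7, Paip1, 1810058I24Rik and Mboat7, with Pearson's r from 0.9945 to 0.9988. The 6 libraries fall into 2 groups that differ in Ly6e, so these values are descriptions only. Fbxo40 stood at 2.82 ± 0.405 against 10.3 ± 0.548 CPM in control libraries, and Paip1 at 60.0 ± 2.01 against 76.0 ± 1.48 CPM, so a like pattern came with changes of different size. For Ly6c1 the closest were E2f1, Klf5, Sostdc1, Plac9a and Fstl3 (0.9822 to 0.9915), for Ly6c2 Hps6, Diaph1, Tnfrsf12a, Arf3 and Hoxa11 (0.9817 to 0.9925) and for Ly6a Tmem62, Angpt1, Abhd13, Sntg2 and Thap6 (0.9816 to 0.9975). Between members over the same libraries, r was −0.945 for Ly6e and Ly6c1, 0.806 for Ly6c1 and Ly6c2, and 0.680 for Ly6e and Ly6a.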

How the data were processed

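RNA-seq of 6 libraries was used, 3 Nf2-knockout and 3 control, grouped by their titles. Tools listed in the submitters' processing notes, with no role given, are HISAT2 2.0.4, StringTie 1.3.4d, cutadapt 1.9 and edgeR. No source used here gives the genome build or strand setting. In the single deposited table the authors give counts and FPKM side by side for each library. The deposited counts are whole numbers with unequal totals, and a count of 0 has an FPKM of 0.0001. Positions equalled GENCODE M21 (GRCm38) for 86.9% of 55141 genes and for 6 of 7 members, so they are given as GRCm38.

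The counts were tested with edgeR 4.0.16 in R 4.3.3 (filterByExpr, TMM, quasi-likelihood test on group alone, two-sided, Benjamini-Hochberg over 18218 genes, threshold 0.05), checked on simulated counts. The SE was obtained by dividing the size of the log2 fold change by the root of its F statistic. CPM uses TMM-scaled totals. Alternatives were DESeq2 1.42.0, its size factors, no filter, limma 3.58.1 on log2(FPKM + 0.1) or log2(FPKM + 1) with a filter of 0.5 in 3 libraries or none, a replicate block, and leaving out each library. Members and lists were chosen with earlier results of these data known. Named genes are the members, tested family genes, genes within 100 kb of the cluster, up to 6 called and the 3 most abundant genes of a list (4 for cell types), and the 5 genes most like each member with a mean FPKM of at least 1. Acan, Sox9, Matn1, Pecam1, Cdh5, Krt14, Ccr2, Vcam1, Nes, Lepr and Cd44 were named after their values were seen.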

Additional observations from a re-analysis of the deposited data

How the results depend on the processing

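Ly6e kept its direction and its call in all 13 alternative fits, and Ly6a kept its direction with no call in all 13. These fits reuse the libraries on which Ly6e was chosen, so its calls in them are not independent evidence. The members called numbered 1 with the replicate block and 1 to 3 with 1 library left out (3 with DESeq2). Genes changed numbered 2637 with DESeq2, 923 with the replicate block, 1065 with limma on FPKM without a filter and 629 to 1186 with 1 library left out. Rises made up 44.2% of calls in edgeR, 63.0% in limma on FPKM + 0.1, 62.9% on FPKM + 1 and 63.1% without a filter. Other family genes called numbered 0 to 2 with 1 library left out, the 0 in edgeR without Nf2-knockout replicate 1, where 3 had an unadjusted p under 0.05. GPI anchor genes called numbered 1 with no filter on counts, 1 in each limma fit and 1 to 2 with 1 library left out. Interferon genes called numbered 9 with limma on FPKM without a filter and 10 to 18 with 1 library left out. For Ly6f and Gm39556, 8 of 11 alternatives lost the call. Same-numbered libraries deviated from their group means with correlations of −0.0900, 0.0300 and 0.0230, so the numbers were not taken to pair them, and in the replicate block Ly6c1 (adjusted p = 0.0533), Ly6f (0.169) and Gm39556 (0.162) lost their calls. The cause of these changes was not tested. Ly6d, Ly6h and Ly6k had counts of only 42, 12 and 15 over all libraries, which limits what can be said of them.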
